A study of Mus musculus with 7 samples.

Results

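Levels of 4 connexin genes (Gja1, Gja4, Gja5 and Gjc1) and 4 cadherin genes (Cdh1, Cdh2, Cdh5 and Cdh11) were read in single cells of fetal mouse gonads and newborn mouse ovaries. These are 8 of the 31053 genes in the deposited tables, taken by gene symbol. They were chosen with earlier results of these data known. Untreated wild-type C57BL/6J gonads were pooled, dissociated with trypsin and run on 10x Genomics droplets, with 1 library at each of 7 ages, 5 embryonic (E11.5, E12.5 and then E14.5, E16.5 and E18.5) and 2 after birth (P1 and P5). Cells with at least 200 genes were clustered and the clusters were placed in classes from marker lists led by Dazl and Ddx4 (germ cells), Upk3b (epithelium), Wnt6 and Kitl (pregranulosa, PG, cells), Col1a1 and Col1a2 (stroma) and Cldn5 (endothelium). None of the 8 genes was a marker or was used in the clustering. Each age is 1 pool, so 2 ages were never tested against each other, and dissociation lasted from 20 min at E11.5 and E12.5 to 80 min at P1 and P5, so that age and dissociation time cannot be told apart.

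Connexins form gap junctions. Neighbouring cells each contribute a hexameric channel, and ions and small molecules pass from cell to cell through the paired channels. Gja1 encodes the main connexin of granulosa cells, and Gja4 that of oocytes, through which the follicle's somatic cells supply the oocyte. Gja4 and Gja5 also join the endothelial cells of arteries, and Gjc1 is known from smooth muscle and the developing heart. Cadherins hold cells together at adherens junctions by binding the same cadherin on the next cell, with the catenins linking them to the actin cytoskeleton inside. Cdh1 is the epithelial cadherin, Cdh2 the neural cadherin, Cdh5 the cadherin of vascular endothelium and Cdh11 a cadherin of mesenchymal cells.

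A promoter sequence was held in the RefSeq table of build GRCm38.p6 for 3 of the 8 genes. Those of Gja1 and Gja4 are shown because Gja1 had its highest median level in PG cells and Gja4 rose in germ cells. Capitals mark CANNTG, the E-box motif that basic helix-loop-helix factors can bind, searched on both strands (the motif reads the same on each).

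Gja1 promoter, chr10:56377050-56377299, plus strand: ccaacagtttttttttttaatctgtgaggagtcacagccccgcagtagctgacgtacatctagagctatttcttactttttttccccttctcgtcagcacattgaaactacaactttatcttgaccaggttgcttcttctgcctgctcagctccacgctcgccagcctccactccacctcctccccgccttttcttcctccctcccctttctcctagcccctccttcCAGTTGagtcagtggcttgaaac
Gja4 promoter, chr4:127314040-127314289, minus strand: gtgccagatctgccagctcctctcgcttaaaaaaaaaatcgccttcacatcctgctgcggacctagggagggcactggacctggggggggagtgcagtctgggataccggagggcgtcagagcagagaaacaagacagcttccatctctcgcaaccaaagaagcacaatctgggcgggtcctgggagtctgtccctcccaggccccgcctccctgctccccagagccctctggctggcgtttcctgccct

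The Gja1 window held 1 match and the Gja4 window 0, and 66.2% of the 32851 promoters of the table held at least 1. These matches only describe the letters of the windows. On GRCm38 with GENCODE vM21, Gja1 (ENSMUSG00000050953) lies at chr10:56377330-56402513, Gja4 (ENSMUSG00000050234) at chr4:127311421-127314039, Gja5 (ENSMUSG00000057123) at chr3:96904693-97077416 and Gjc1 (ENSMUSG00000034520) at chr11:102799579-102819700. Cdh1 (ENSMUSG00000000303) lies at chr8:106603351-106670246, Cdh5 (ENSMUSG00000031871) at chr8:104101625-104144511, Cdh11 (ENSMUSG00000031673) at chr8:102632095-102785642 and Cdh2 (ENSMUSG00000024304) at chr18:16588877-16809246.

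The 7 libraries held 50823 cells with at least 200 genes and 492138529 UMIs (unique molecular identifiers, each counting 1 RNA molecule), with a median of 6349 to 11060 UMIs per cell. In germ, PG, stromal and endothelial cells the class's own markers summed highest in every library. In the epithelial class PG markers summed higher than its own at E14.5 (1390 against 783 CPM, UMIs of the genes per 1000000 UMIs) and E16.5 (2147 against 1290) and lower from E18.5 on, at 1446 to 1694 against 1616 to 2533 CPM, so the class is called epithelium here by its rule gene Upk3b. The 21 mural cells of E18.5 held more stromal than mural markers (3308 against 2132 CPM). This clustering set epithelium apart only from E14.5 on, so that there are 33 sums of a class and a library. The paper reports epithelial cells already in the E11.5 gonad. Here the stromal class held a Upk3b UMI in 13.7% of its cells in the E11.5 library and 26.2% in the E12.5 library. The part of epithelial cells in these early stromal sums was not tested. Several clusters came mostly from 1 library, among them a stromal cluster with 6097 of its 6140 cells from E11.5, a PG cluster with 3612 of 3663 cells from E16.5 and a germ cluster with 876 of 877 cells from E16.5. A Y-linked UMI was found in 28.4% of the E11.5 cells and 7.10% of the E12.5 cells, and in at most 0.158% later. The E11.5 and E12.5 pools thus held male cells. The sex make-up of the pools therefore also changed with age, and its part in the trends with age was not tested. In all, 907 barcodes occurred in more than 1 library. Erythroid cells, which should lack the 8 genes, served as a measure of free RNA. They were shallow, with a median of 2879.5 UMIs over all libraries against 12875.5 in germ cells. Of the 6870 erythroid cells 3173 came from a cluster with a median of 915 UMIs. The other erythroid clusters had medians of 7371.5 to 8896 UMIs. Free RNA can therefore be a larger share of their CPM than in deeper cells.

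A level below is the CPM of the UMIs summed over the cells of a class in a library. Classes were compared by edgeR's quasi-likelihood test on these sums with the library as a block, Benjamini-Hochberg adjusted over 14380 genes and called at an adjusted p under 0.05. With this block, the p-values weigh a class difference against the spread left after class and library in the joint fit of all classes. These 7 libraries also differ in age, and epithelium entered the fit only from E14.5 on. Ages were not replicated, so the spread between pools of the same age was not measured. Gja5 was too low to be tested. Over the 10 pairs of classes, 46 of the 70 tests of the other 7 genes were called, 8 of 10 for Cdh11, 7 of 10 each for Gja1, Gja4, Gjc1 and Cdh1, 6 of 10 for Cdh2 and 4 of 10 for Cdh5. The levels of the 8 genes are plotted first by library.

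**Figure D1:**
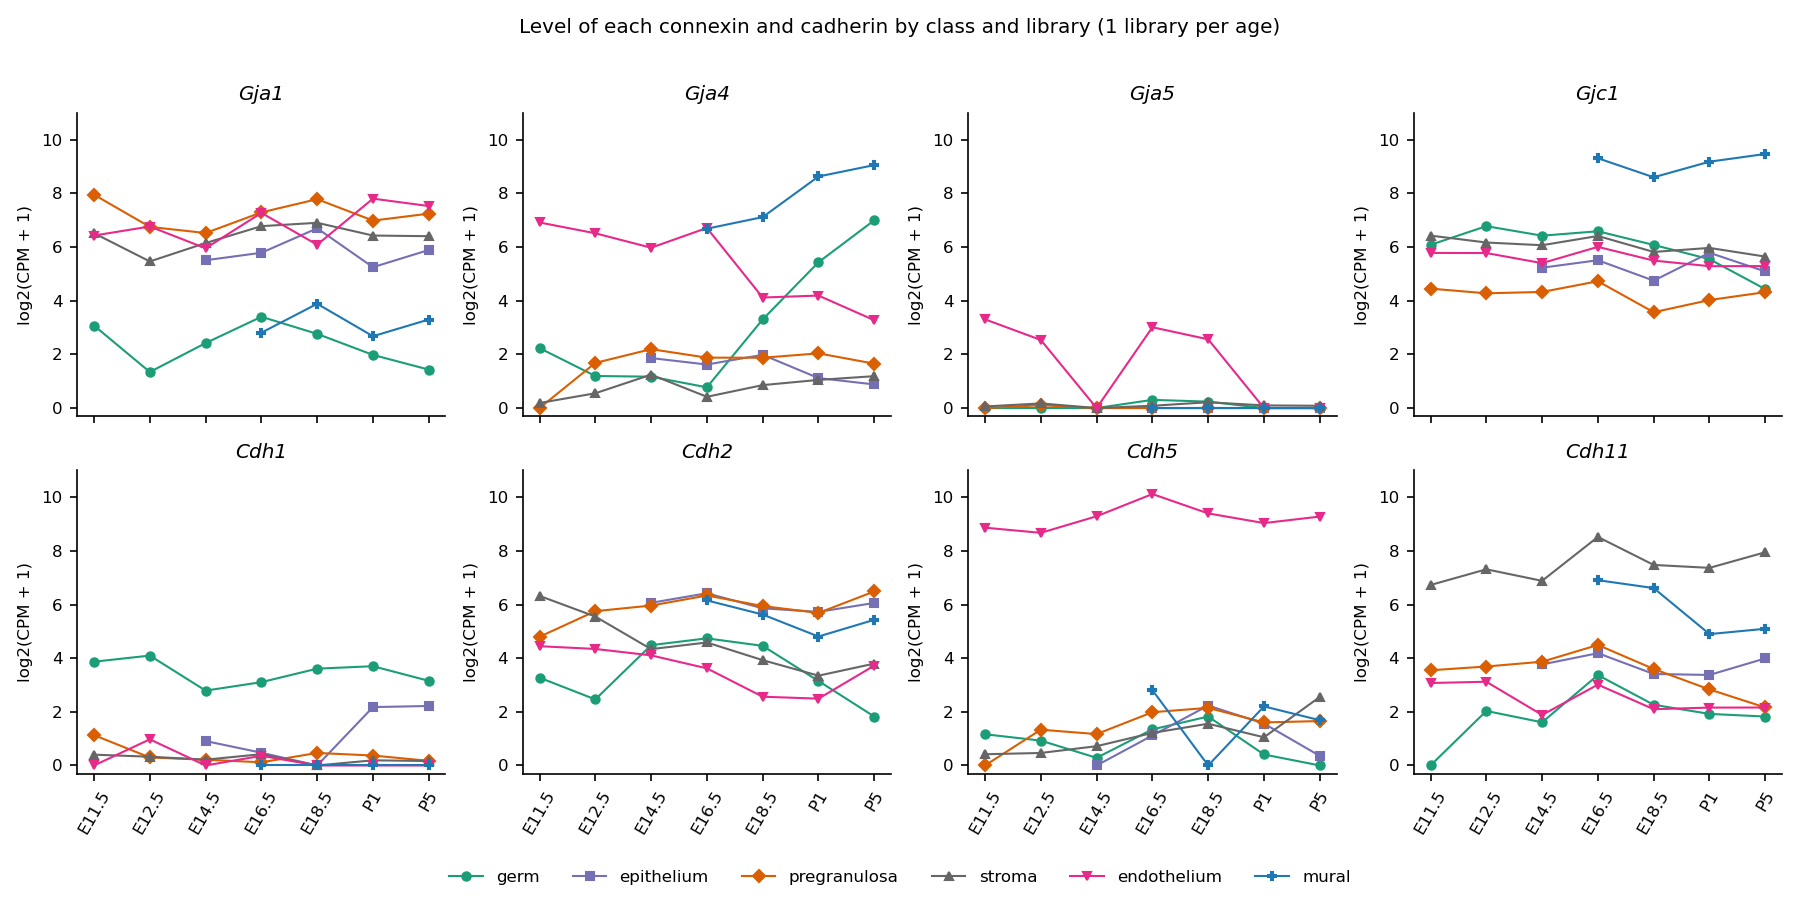
Level of each of the 8 genes, as log2(CPM + 1), against library from E11.5 to P5, with 1 line per cell class. Cdh5 stood apart in endothelium and Cdh11 in stroma at all 7 ages, while Gja4 in germ cells lay below endothelium up to E18.5 and above it at P1 and P5.

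The members' share of calls has to be read against the whole transcriptome. In germ cells against epithelium 6 of the 7 genes were called and 60.8% of all genes tested, against PG cells 6 and 66.0%, against stroma 4 and 66.2%, and against endothelium 5 and 62.4%. In epithelium against PG cells 3 were called and 10.5% of all genes, against stroma 4 and 25.9%, and against endothelium 6 and 36.4%. In PG cells against stroma 4 were called and 36.1% of all genes, against endothelium 5 and 45.6%, and in stroma against endothelium 3 and 37.2%. Between germ cells and the 4 somatic classes most genes of the transcriptome differed, so the members' counts there lie near the background. The median log2 difference of the 7 genes lay between -1.03 (germ less PG cells) and 0.49 (PG cells less stroma), and that of all genes between -0.09 and 0.30, and in each pair of classes members were called in both directions.

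**Figure D2:**
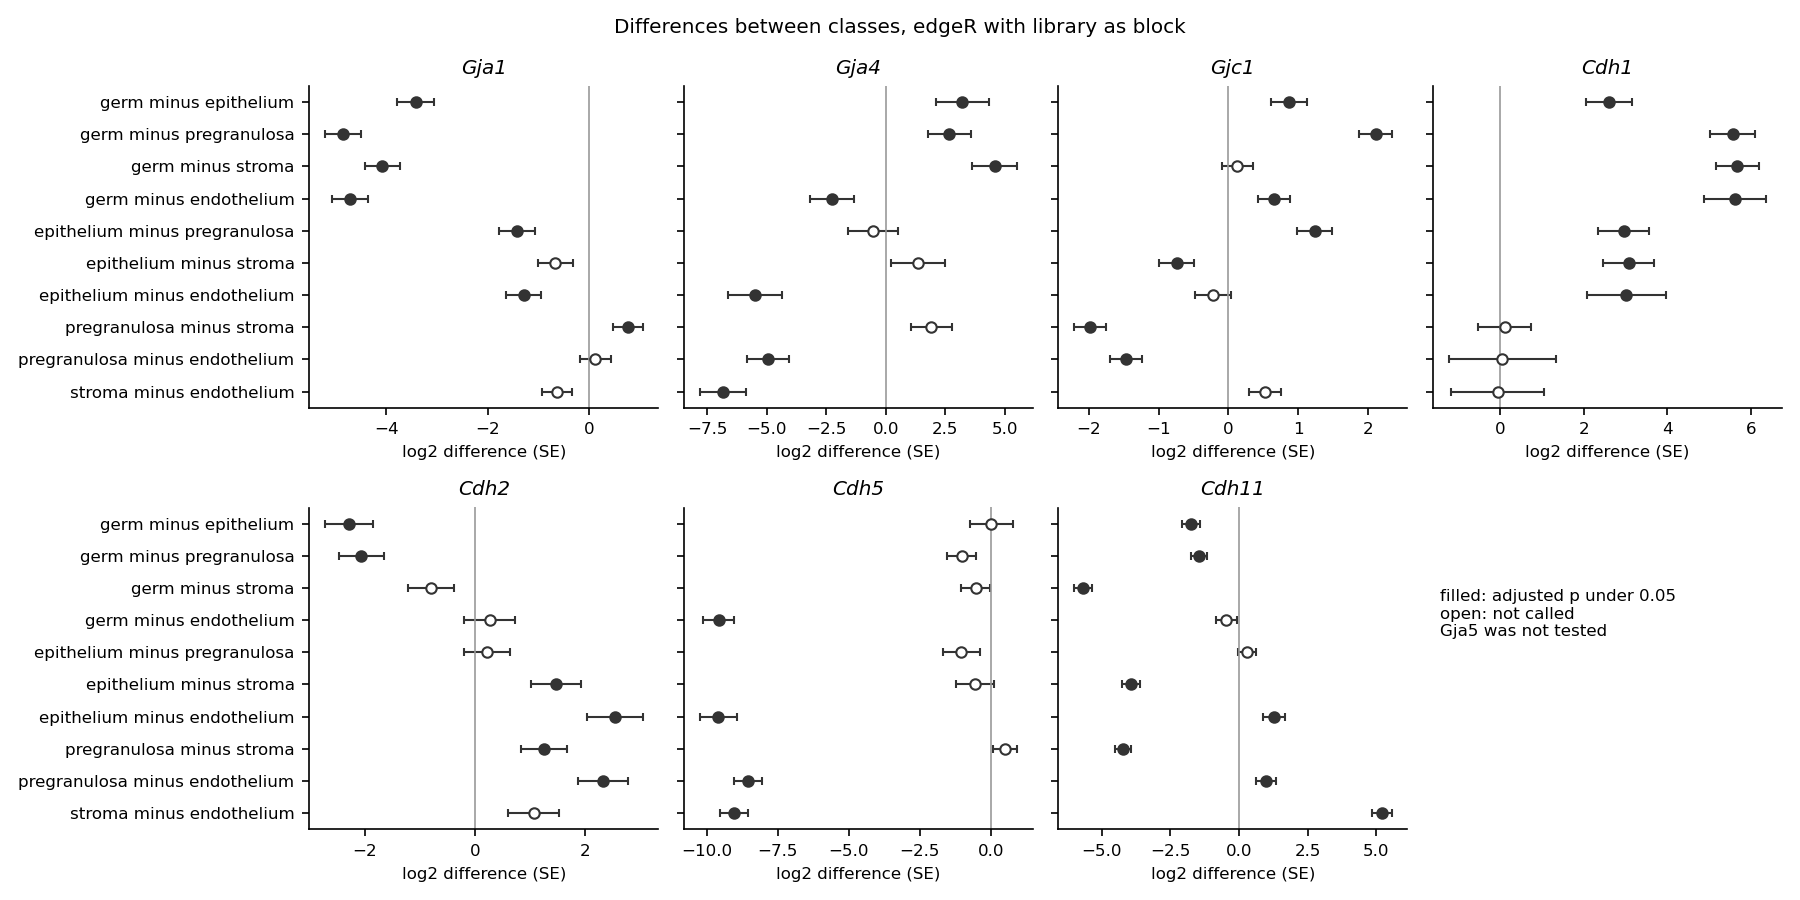
Log2 difference between 2 classes with its standard error for the 7 tested genes, in each of the 10 pairs of classes, with filled points where the adjusted p was under 0.05. Cdh5 was 8.55 to 9.60 higher in endothelium in all 4 pairs that hold it, and Gja1 had negative differences in all 4 pairs of germ cells with a somatic class.

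Gja1, the granulosa cell connexin, was highest in PG cells, endothelium and stroma and lowest in germ cells. In PG cells it measured 247, 107, 91.1, 156, 220, 126 and 151 CPM from E11.5 to P5. Stroma measured 90.7, 43.2, 70.1, 109, 119, 85.3 and 83.9 CPM. PG cells exceeded stroma in 7 of 7 libraries, although the ranges of both classes overlap across ages. Endothelium measured 85.3, 108, 61.1, 154, 67.1, 223 and 184 CPM, and epithelium 44.6, 54.3, 103, 37.1 and 58.4 CPM from E14.5 to P5. Germ cells measured 7.43, 1.54, 4.36, 9.58, 5.80, 2.95 and 1.70 CPM, below the 8.11 to 23.6 CPM of erythroid cells in 7 of 7 libraries. Since erythroid cells were shallower, whether germ cells held Gja1 above free RNA cannot be told from this. The mural cells of vessels, resolved from E16.5 on, held 5.40 to 13.8 CPM, overlapping the range of erythroid cells. The Pax8-high cells held 86.3 to 152 CPM. They were set apart by Pax8 (a gene of mesonephric and rete tissue) from a pool of PG, epithelial and rete-like clusters.

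By the test, Gja1 was 28.8-fold higher in PG than in germ cells (log2 difference -4.85 ± 0.36 for germ less PG, edgeR adjusted p = 5.44e-12), and 17.0-fold higher in stroma than in germ cells (adjusted p = 7.57e-11). It was 2.68-fold lower in epithelium than in PG cells (log2 -1.42 ± 0.35, adjusted p = 0.00736). With a stricter filter on cells, at 1000 genes or more and no more than 10% of UMIs from mitochondria, the epithelial difference from PG cells was -1.02 with an adjusted p of 0.393. Neighbours in the order were not told apart, PG cells and endothelium (log2 0.13, adjusted p = 0.758), endothelium and stroma (-0.63 for stroma less endothelium, adjusted p = 0.104) and stroma and epithelium (-0.66 for epithelium less stroma, adjusted p = 0.159). PG cells were 1.70-fold above stroma (log2 0.77 ± 0.29, adjusted p = 0.0433), a call lost without the library block (adjusted p = 0.101) and without E11.5 (adjusted p = 0.0744), E12.5 (0.110), E14.5 (0.0517), E18.5 (0.0598) or P5 (0.0573). The call against endothelium, with epithelium 2.45-fold lower (adjusted p = 0.00484), was lost with the stricter cells (adjusted p = 0.343) and without P1 (adjusted p = 0.0634).

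Gja1 was not even within the PG cells. In each library the PG sub-cluster highest in Foxl2, the transcription factor of granulosa cells, was set beside the sub-cluster highest in Lgr5, a receptor that marks PG cells of the cortex. This comparison was chosen after the values were seen and is a description. Gja1 measured 206, 247, 303, 205 and 93.9 CPM in the Foxl2 sub-cluster from E14.5 to P5 and 37.6, 34.8, 92.8, 49.6 and 44.9 CPM in the Lgr5 sub-cluster. The Foxl2 side was higher in 5 of 5 libraries, by 5.48-, 7.10-, 3.27-, 4.13- and 2.09-fold. At P5 the highest levels lay in neither of these sub-clusters, since others reached 210 and 241 CPM. The one at 241 CPM held the least Foxl2 of the P5 sub-clusters, 294 CPM. At E11.5 PG cells held 247 CPM of Gja1 with 7.74 CPM of Foxl2. At E12.5 a single sub-cluster was highest in both Foxl2 and Lgr5.

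Cdh2 ran the other way in the same sub-clusters. It measured 50.8, 59.8, 46.0, 34.2 and 118 CPM on the Foxl2 side and 67.1, 86.6, 72.8, 84.4 and 121 CPM on the Lgr5 side, higher on the Lgr5 side in 5 of 5 libraries by 1.32-, 1.45-, 1.58-, 2.47- and 1.03-fold. At P5 the 2 sides were almost equal in Cdh2. Other sub-clusters did not all follow. At P1 a further one with 113 CPM of Lgr5 held 36.8 CPM of Cdh2. At E16.5 one with 425 CPM of Foxl2 and 32.9 of Lgr5 held 83.1. Gja4 and Cdh5 were also higher on the Lgr5 side in 5 of 5 libraries, at levels of at most 6.14 and 4.95 CPM. These rest on few UMIs, at P5 10 against 6 for Gja4 and 7 against 6 for Cdh5. For both genes the exact Poisson intervals of the 2 sides were apart at E16.5 and overlapped in the other libraries. The Cdh5 levels lay within the 0 to 5.67 CPM of erythroid cells. Gjc1 was higher there in 4 of 5 libraries and Cdh11 higher on the Foxl2 side in 3 of 5.

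**Figure D3:**
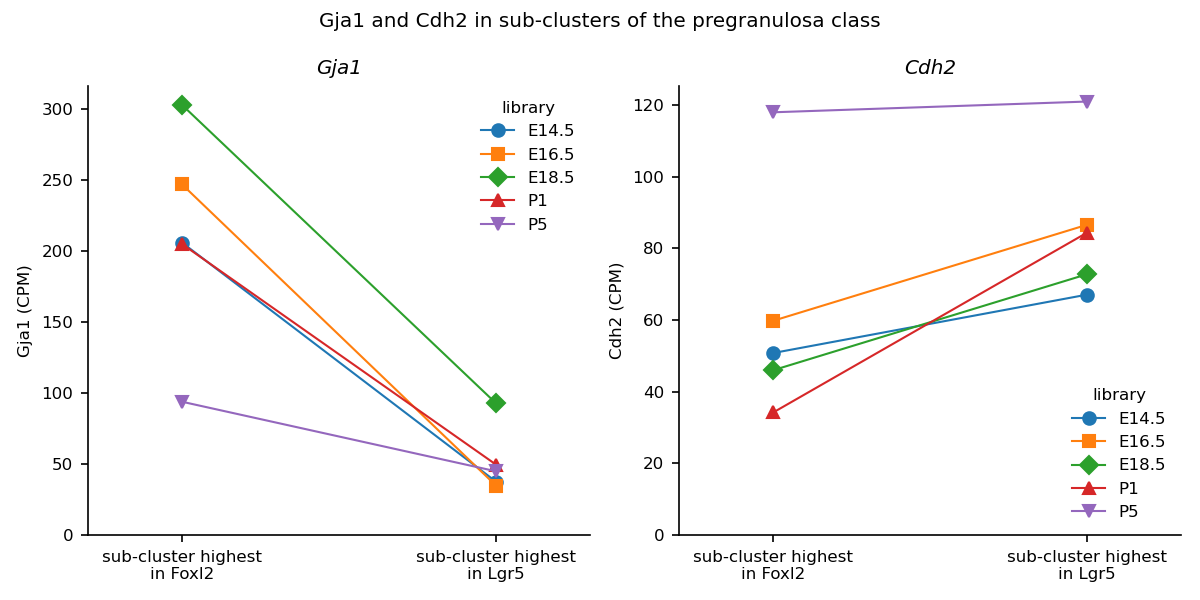
CPM of Gja1 and Cdh2 from E14.5 to P5 in the PG sub-cluster highest in Foxl2 and in that highest in Lgr5. Gja1 was higher on the Foxl2 side in 5 of 5 libraries and Cdh2 higher on the Lgr5 side in 5 of 5.

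Gja4, the oocyte connexin, had 3 places of expression: endothelium, mural cells and the latest germ cells. In germ cells it measured 3.71, 1.29, 1.25, 0.709, 8.88, 42.3 and 127 CPM from E11.5 to P5. These values rest on 3, 10, 46, 18, 49, 258 and 451 UMIs. The exact Poisson interval was 37.3 to 47.8 CPM at P1 and 116 to 140 CPM at P5, intervals that cover counting error only and no spread between pools. The values of P1 and P5 were the highest of the 7 libraries. In erythroid cells Gja4 stayed between 0 and 0.939 CPM.

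Gja4 was found in 7.32, 2.54, 1.48, 1.24, 6.45, 29.2 and 63.2% of germ cells from E11.5 to P5, that is 97 of 332 cells at P1 and 55 of 87 at P5. The depth of germ cells was uneven, with medians of 13597 UMIs at P1 and 33217 at P5, against 6087 and 2395.5 in erythroid cells, of which 0.377 and 0.472% held a Gja4 UMI. After thinning to 2000 UMIs per cell the shares of germ cells were 2.56, 0.581, 0.154, 0.1, 1.78, 7.17 and 9.21%. The thinned shares at P1 and P5, over 237 and 76 cells, remained the highest of the 7. Germ cells with a Gja4 UMI were the deep ones, with a median of 63376 UMIs against 4338 in those without at P5, and 38630 against 3677 at P1. At P5 the cells with Gja4 held 8.20 Gja4 UMIs on average and 37 at most.

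Markers of the other 2 Gja4 cell types were low in these germ cells. Summed mural markers lay between 3.67 and 12.4 CPM in the germ class and were lowest at P5, with Cspg4 and Higd1b at 0. Summed endothelial markers lay between 11.3 CPM at P5, with Esam at 0, and 106 CPM at E11.5.

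In endothelium Gja4 measured 120, 90.5, 62.0, 104, 16.4, 17.3 and 8.68 CPM from E11.5 to P5. The 4 earliest libraries lay above the 3 latest, without overlap. Of 634 endothelial cells 109 had a Gja4 UMI, a share between 28.2% at E11.5 and 4.65% at P5, and cells with Gja4 were deeper (median 14140 UMIs) than those without (9152). Mural cells, found only from E16.5 on, measured 102, 138, 396 and 532 CPM, and after thinning 22.3, 14.3, 39.1 and 55.1% of them held a Gja4 UMI. Mural cells thus exceeded germ cells in each of these 4 libraries, and endothelium in all but E16.5. PG cells measured 0 CPM at E11.5 and 2.15 to 3.58 later, epithelium 0.842 to 2.96, stroma 0.140 to 1.37 and Pax8-high cells at most 12.3 CPM.

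**Figure D4:**
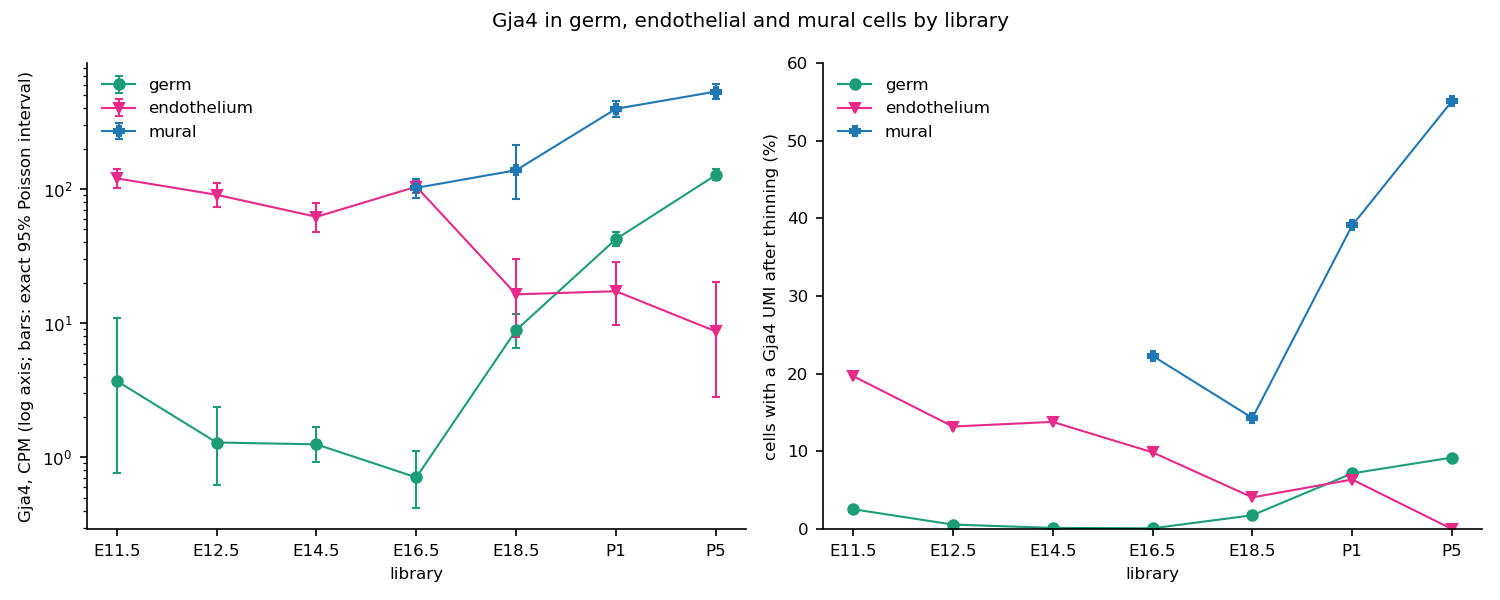
Left, Gja4 level in CPM on a log axis with exact Poisson intervals in germ, endothelial and mural cells of each library. Right, the share of cells with a Gja4 UMI after thinning each cell to 2000 UMIs; germ cells reached 7.17% at P1 and 9.21% at P5.

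In the fit over all libraries Gja4 was 23.8-fold higher in germ cells than in stroma (log2 4.57 ± 0.94, edgeR adjusted p = 0.000122), a call kept in all 15 alternatives. The size was less steady, at 1.95 (adjusted p = 0.0377) with cells assigned singly by the class genes, where stroma held 11.9 and 10.4 CPM of Gja4 at P1 and P5, and 3.41 without P5 (adjusted p = 0.00119). The single assignment had no mural class, and the part of mural cells in its stromal level was not tested. Germ cells did not exceed stroma at every age. At E14.5 stroma in the main classes held 1.37 CPM, more than germ cells. Gja4 was also called higher in germ than in PG cells (log2 2.66 ± 0.90, adjusted p = 0.0107) and in germ cells than in epithelium (log2 3.21 ± 1.12, adjusted p = 0.0150). Both calls rest on the 2 latest libraries: without P1 the adjusted p was 0.0929 and 0.112, and without P5 0.144 and 0.161. The call against epithelium was also lost with the stricter cells (0.127), and PG cells passed against stroma only without P5 (log2 2.08, adjusted p = 0.0433). Endothelium exceeded PG cells (30.6-fold, adjusted p = 3.89e-05), stroma (115-fold, adjusted p = 2.3e-06) and epithelium (44.8-fold, adjusted p = 0.000342). It exceeded germ cells by 4.85-fold (adjusted p = 0.0333), but the adjusted p was 0.152 without E11.5, 0.124 without E12.5, 0.0664 without E14.5, 0.150 without E16.5, 0.0554 without E18.5 and 0.198 without the library block.

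Gja5, the other arterial connexin, was found in few cells. In endothelium it measured 8.90, 4.81, 0, 7.07, 4.91, 0 and 0 CPM from E11.5 to P5, on 12, 5, 0, 25, 3, 0 and 0 UMIs. Endothelium held 45 Gja5 UMIs, stroma 11, germ cells 7, PG cells 1, and epithelium and mural cells 0. All 19 endothelial cells with a Gja5 UMI also held Gja4. Erythroid cells held 0 Gja5 UMIs in 7 of 7 libraries. The libraries at 0 had 133, 60 and 43 endothelial cells, and absence cannot be read from so few.

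Gjc1 was highest in mural cells, with 635, 388, 581 and 709 CPM from E16.5 to P5 and a UMI in 76.2 to 92.3% of the cells. Mural cells exceeded the other 5 classes in each of these 4 libraries. Germ cells measured 66.9, 109, 85.0, 95.4, 66.7, 45.9 and 20.6 CPM from E11.5 to P5. Stroma measured 85.2, 71.1, 66.2, 84.4, 55.5, 61.7 and 49.1 CPM, and endothelium 54.1, 53.9, 41.3, 63.4, 44.2, 38.1 and 38.2 CPM. Epithelium lay between 25.9 and 54.3 CPM and PG cells, the lowest class, between 10.9 and 25.5 CPM, with erythroid cells at 1.28 to 12.2 CPM.

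Germ cells exceeded PG cells in Gjc1 in 7 of 7 libraries, by 4.31-fold in the fit (log2 2.11 ± 0.23, edgeR adjusted p = 6.36e-09). At P5 the intervals overlapped, 16.2 to 25.9 CPM in germ cells and 16.9 to 21.2 CPM in PG cells. Stroma exceeded PG cells by 3.93-fold (adjusted p = 6.55e-08), endothelium by 2.75-fold (adjusted p = 8.73e-06) and epithelium by 2.36-fold (adjusted p = 0.00106, or 0.0550 with the stricter cells). Germ cells and stroma were not told apart (log2 0.13, adjusted p = 0.609), nor stroma and endothelium (0.52, adjusted p = 0.0749, or 0.0406 without P5). Germ cells were called above endothelium (log2 0.65 ± 0.23, adjusted p = 0.0160), which was lost without E12.5 or E14.5 (adjusted p = 0.119 and 0.177) and with cells assigned singly by the class genes (0.0622). They were also called above epithelium (log2 0.87 ± 0.26, adjusted p = 0.00457), lost without E14.5 (0.0663), with the stricter cells (0.108) and with cells assigned singly (0.0968). Epithelium was called below stroma (log2 -0.74 ± 0.25, adjusted p = 0.0288), a call lost in 8 alternatives, among them those without E11.5 (adjusted p = 0.0587), E14.5 (0.0943), E16.5 (0.129) or E18.5 (0.118).

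Among the other connexin genes of the list, Gjb5 is given here, chosen after its values were seen. In germ cells it measured 2.48, 8.37, 5.29, 0.0788, 0, 0 and 0 CPM from E11.5 to P5. Germ cells of E11.5 to E14.5 and those of E16.5 to P5 did not overlap. Gjb5 fell with age (log2 -1.99 ± 0.51 per step of the age order, edgeR adjusted p = 0.0351), a call lost without E12.5, E18.5, P1 or P5 (adjusted p = 0.128, 0.0692, 0.129 and 0.0801).

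Cdh1, the epithelial cadherin, was highest in germ cells among the 5 classes. Germ cells measured 13.6, 16.1, 5.92, 7.61, 11.2, 12 and 7.91 CPM from E11.5 to P5, and erythroid cells at most 0.290 CPM. Epithelium measured 0.879, 0.390, 0, 3.52 and 3.65 CPM from E14.5 to P5, on 3, 3, 0, 9 and 13 UMIs. PG cells stayed at or below 1.19 CPM with 21 UMIs in all, stroma at or below 0.338 CPM, and endothelium held 2 UMIs in all. Germ cells exceeded each of the other 4 classes in every library, and the cells named here as ovarian epithelium held little Cdh1 message. Higher Cdh1 levels lay outside the 5 classes, with 54.6 CPM in Pax8-high cells at E11.5, 16.0 at E12.5 and 12.4 at P1, and 37.1 CPM (323 UMIs) in 642 unnamed cells of E11.5, a mixed group whose leading genes include Cldn6 and Epcam (epithelia), Tubb3 and Nefm (neurons) and Myog and Mylpf (muscle). The Pax8-high cells of E12.5 were uneven. Cdh1 measured 50.2 and 63.4 CPM in sub-clusters of 54 and 30 cells, and 0.387 and 4.44 CPM in those of 267 and 48 cells.

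The germ cell level of Cdh1 was 47.3-fold above PG cells (log2 5.56 ± 0.53, edgeR adjusted p = 5.23e-10) and 50.9-fold above stroma (log2 5.67 ± 0.52, adjusted p = 2.48e-10). Above epithelium the difference was 2.60 ± 0.55 (adjusted p = 0.000219), and above endothelium the adjusted p was 2.16e-07. Epithelium was called above PG cells (log2 2.96 ± 0.61, adjusted p = 0.00151) and stroma (3.07 ± 0.60, adjusted p = 0.000296) on these 28 UMIs. With the stricter cells the difference from PG cells turned to -1.06 (adjusted p = 0.811) and that from stroma fell to 0.39 (adjusted p = 0.978), and with cells assigned singly both calls were lost (adjusted p = 0.730 and 0.0729). The call of epithelium above endothelium (adjusted p = 0.0122) was lost with both of these and without P1 (0.0661) or P5 (0.0853).

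Cdh2, the neural cadherin, was shared by epithelium and PG cells. Epithelium measured 65.9, 84.6, 57.0, 51.9 and 65.7 CPM from E14.5 to P5. PG cells measured 26.8, 52.9, 61.3, 79.8, 60.5, 50.5 and 88.7 CPM from E11.5 to P5. The 2 classes overlapped and were not told apart (log2 0.22, edgeR adjusted p = 0.846). Stroma measured 79.0, 45.9, 19.2, 23.0, 14.2, 9.18 and 12.9 CPM, above PG cells at E11.5 and below them in the other 6 libraries. Germ cells measured 8.67, 4.51, 21.4, 25.7, 21.0, 7.87 and 2.54 CPM and endothelium 4.62 to 20.8 CPM. Erythroid cells held 3.23 to 8.60 CPM, and germ cells lay above them with intervals that did not overlap in the 4 libraries from E14.5 to P1. Mural cells measured 70.2, 48.4, 27.0 and 42.1 CPM from E16.5 to P5.

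Cdh2 was higher in epithelium than in germ cells (4.86-fold, adjusted p = 6.8e-05) and endothelium (5.86-fold, adjusted p = 0.000175), and higher in PG cells than in germ cells (4.17-fold, adjusted p = 8.33e-05) and endothelium (5.03-fold, adjusted p = 0.000150). Stroma was not told apart from germ cells (log2 -0.80 for germ less stroma, adjusted p = 0.0923, or 0.0456 without E14.5) or from endothelium (log2 1.07, adjusted p = 0.0654, or 0.0459 without P5). Epithelium and PG cells were also called above stroma. For PG cells (log2 1.26 ± 0.41, adjusted p = 0.0168) the call was lost without the block (adjusted p = 0.0861) and without E18.5, P1 or P5 (0.0635, 0.0821 and 0.0620). For epithelium (log2 1.48 ± 0.46, adjusted p = 0.0173) it was lost without the block (0.0787), without E14.5 (0.0513), E16.5 (0.0608), E18.5 (0.0686) or P1 (0.0914) and with the stricter cells (0.605).

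Cdh5, the vascular cadherin, measured 465, 407, 625, 1111, 673, 524 and 620 CPM in endothelium from E11.5 to P5. It stayed at or below 2.54 CPM in germ cells, 3.70 in epithelium, 3.43 in PG cells and 6.01 in mural cells. In stroma it measured 0.336, 0.381, 0.646, 1.32, 1.94, 1.07 and 4.87 CPM, and in erythroid cells 0 to 5.67 CPM. Endothelium exceeded the other 4 classes and mural cells in each library without overlap, and the other 4 classes by 8.55 to 9.60 on the log2 scale (edgeR adjusted p between 2.13e-14 and 4.84e-12). No other pair of classes was called, although germ against PG cells (log2 -1.03, adjusted p = 0.0690) passed in 6 alternatives, among them those without E11.5 (0.0468), E12.5 (0.0485) or P5 (0.0313). PG cells against stroma passed without P5 (log2 1.09, adjusted p = 0.0226), and epithelium against PG cells with cells assigned singly (log2 -1.83, adjusted p = 0.0349).

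Cdh11, the mesenchymal cadherin, measured 105, 158, 117, 366, 177, 164 and 246 CPM in stroma from E11.5 to P5. Stroma was the highest of the 5 classes in 7 of 7 libraries. Mural cells measured 119, 96.9, 28.8 and 33.2 CPM from E16.5 to P5. Epithelium measured 12.6, 17.2, 9.63, 9.37 and 14.9 CPM from E14.5 on and PG cells 10.7, 11.9, 13.6, 21.5, 11.1, 6.13 and 3.48 CPM. These somatic levels overlapped the 2.24 to 25.3 CPM of erythroid cells. Germ cells held 0 to 9.34 CPM, below erythroid cells in 6 of 7 libraries, with E18.5 the exception. Stroma exceeded germ cells by 51.0-fold, PG cells by 18.7-fold, epithelium by 15.3-fold and endothelium by 37.1-fold (edgeR adjusted p = 2.89e-14, 1.66e-11, 2.33e-09 and 2.23e-12). PG cells and epithelium were not told apart (log2 0.29, adjusted p = 0.685), but passed at resolution 1.2 (1.40, adjusted p = 0.00469) and with cells assigned singly (1.77, adjusted p = 3.63e-05). Both were called above germ cells (log2 -1.45 and -1.74 for germ less the other, adjusted p = 0.000105 and 6.25e-05) and above endothelium (log2 0.99 and 1.28, adjusted p = 0.0263 and 0.0128). The call of PG cells above endothelium was lost without the block (0.0527) and without E14.5, E16.5 or E18.5 (0.131, 0.122 and 0.0736), and that of epithelium without E14.5 (0.0571).

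Trends over the order of the 7 ages (1 to 7) were fitted by edgeR within each class. In germ cells Gja4 rose, by 1.2 ± 0.25 on the log2 scale per step (adjusted p = 0.0168), the only call among the 6 members tested, where 11.2% of all genes were called. The rise came after E16.5, since the level was no higher at E16.5 than at E11.5, and the call was lost without E12.5 (1.3, adjusted p = 0.0543) or P5 (0.96, adjusted p = 0.0821). The first trend fit, whose low-count filter every library had to pass, had left Gja4 out. Gja4 entered after that filter was changed, with its highest germ cell levels at P1 and P5. Gjc1 in germ cells had a trend of -0.35 ± 0.11 (adjusted p = 0.0775), which passed without E11.5 (-0.50, adjusted p = 0.0304), without E16.5 (-0.34, adjusted p = 0.0402) and in DESeq2 (-0.34, adjusted p = 0.00984).

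In endothelium Gja4 fell by 0.55 per step (log2 -0.55 ± 0.11, edgeR adjusted p = 0.00787), 1 of 5 members tested, where 8.05% of all genes were called. That call was lost without P1 (adjusted p = 0.0534), without P5 (0.0719) and with cells assigned singly (0.0718). Gja1 in endothelium passed only without E18.5 (0.27 per step, adjusted p = 0.0466), and Cdh2 only with cells assigned singly (-0.44 per step, adjusted p = 0.0261). In stroma 2 of 6 members were called, where 10.4% of all genes were, while Cdh11 passed only without E16.5 (0.18 per step, adjusted p = 0.0346) and Gja4 only with cells assigned singly (0.95 per step, adjusted p = 0.00881), which sets no mural cells apart. Cdh2 fell by 0.44 per step (log2 -0.44 ± 0.07, adjusted p = 0.00634), which missed the threshold without E11.5 (-0.35, adjusted p = 0.0517). In the stromal sums Upk3b measured 40.7, 104, 81.0, 54.2, 8.74, 9.18 and 13.7 CPM. The 8 epithelial markers summed to 89.6, 252, 187, 168, 25.4, 39.9 and 56.2 CPM. Upk3b and this sum rose from E11.5 to E12.5, where Cdh2 fell, and all were lower from E18.5 on than at E11.5. The part of these markers in the fall of Cdh2 was not tested. Cdh5 rose in stroma by 0.62 ± 0.12 per step (adjusted p = 0.0112), and by 0.51 with an adjusted p of 0.146 without P5, which holds 80 of its UMIs. The 8 endothelial markers summed to 40.8, 70.4, 58.6, 82.1, 47.9, 32.0 and 26.5 CPM in the same sums, lowest at P5.

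In PG cells 0 of 6 members had a trend by edgeR, where 4.58% of all genes did, with 0 at an unadjusted p under 0.05 and 0 by DESeq2. In epithelium 0 of 5 had one, where 2.06% of all genes did, with 1 at an unadjusted p under 0.05 and 0 by DESeq2. Cdh11 in epithelium passed at resolution 1.2 (-0.45 per step, adjusted p = 0.0159) and with cells assigned singly (-0.35, adjusted p = 0.0480). A linear term does not describe levels that go up and down, such as Gja1 in PG cells.

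The trend of Gja4 in germ cells was then set against those of the other classes in 1 edgeR fit, a test added after the values were seen. This fit had no library block, although the classes of a library share a cell suspension. The epithelial trend covers E14.5 to P5 only. It was the only one of 7 members called in each of these 4 comparisons. Against endothelium the difference in trend was 1.85 ± 0.26 log2 per step (adjusted p = 3.79e-05, 9.10% of all genes called), called in 9 of 9 alternatives. Against PG cells it was 1.21 ± 0.28 (adjusted p = 0.00387, 12.2% called), lost without P5 (0.93, adjusted p = 0.145). Against epithelium it was 1.66 ± 0.42 (adjusted p = 0.0173, 5.05% called) and against stroma 0.91 ± 0.28 (adjusted p = 0.0278, 11.9% called). The difference from epithelium was lost without E14.5, P1 or P5 (adjusted p = 0.189, 0.108 and 0.352), and that from stroma without E12.5, E14.5, E18.5, P1 or P5 (0.0709, 0.117, 0.0592, 0.117 and 0.299). Both were lost with cells assigned singly (adjusted p = 0.0927 and 0.356).

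Of the wider lists, 7 of the 18 other cadherins were tested. In PG cells against stroma 0 of these 7 were higher in PG cells and 4 higher in stroma (36.1% of all genes were called), among them Cdh6, a cadherin of kidney and neural crest, at 10.7 to 35.1 CPM in stroma (log2 -4.82 ± 0.55, edgeR adjusted p = 6.73e-08). In epithelium against PG cells 2 were higher and 1 lower (10.5% of all genes were called), with Cdh3, the placental cadherin, at 20.2 to 35.5 CPM in epithelium, 2.35 ± 0.30 above PG cells (adjusted p = 5.13e-06). Cdh13, a cadherin held on the membrane by a lipid anchor, measured 0.742 to 36.5 CPM in endothelium. In stroma the trends of 0 other cadherins rose and of 3 fell, of 9 tested, where 10.4% of all genes were called.

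The catenins, the inner partners of the cadherins, were tested as 7 of 7. Between germ and PG cells 1 was higher in germ cells and 4 in PG cells, a share near the 66.0% of all genes called. Ctnnb1, beta-catenin, had a median of 120 CPM in germ cells, 167 in PG cells, 158 in stroma, 150 in epithelium and 306 in endothelium, and germ cells were called below PG cells (log2 -0.43 ± 0.16, edgeR adjusted p = 0.0182). Of the nectins and junction scaffolds 7 of 8 were tested, 2 higher in germ and 3 in PG cells, again near that share. Nectin2, an adhesion receptor of adherens junctions, measured 71.7 to 204 CPM in PG cells and was lower in germ cells by 2.41 ± 0.40 on the log2 scale (germ less PG -2.41, adjusted p = 6.35e-06), while Afdn, which ties nectins to actin, measured 60.6 to 325 CPM in germ cells and was 1.45 ± 0.20 higher (adjusted p = 3.98e-07). Of the pannexins 1 of 3 was tested, and between germ and PG cells it was not called.

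The genes most like each member over the 33 sums are given by Pearson correlation of log2(CPM + 1), over 13179 genes, as a description. The sums share their libraries and depth. Nearest to Gja1 were Sox4 (0.937), Plscr3 (0.932) and Jpx (0.932). Nearest to Gja4 were Lcp1 (0.886), Ptpn18 (0.856) and Sipa1 (0.853), and to Gjc1 Atad2 (0.897), Top2a (0.871) and Anln (0.858), genes of dividing cells. For the cadherins, Zfp936 (0.915), Rbmxl2 (0.904) and Tdrd12 (0.9) were nearest to Cdh1 and Aldh1a2 (0.869), Cdc14b (0.868) and Tnni1 (0.853) to Cdh2. Cdh5 lay nearest to Gimap4 (0.986), Scarf1 (0.983) and Aplnr (0.982), and Cdh11 to Pdgfra (0.959), Col26a1 (0.924) and Col1a2 (0.921), of which Pdgfra and Col1a2 are stromal markers used to name the class. For Gja5, with its few UMIs, the nearest were D030007L05Rik (0.878), 9230102K24Rik (0.875) and 5033406O09Rik (0.861).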

How the data were processed

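Single-cell RNA was measured in 7 libraries of pooled mouse gonads. The authors deposited UMI counts per gene and cell from Cell Ranger 3.1.0 with the 10x Genomics mm10 reference, neither normalized nor filtered further. The members and lists were chosen with earlier results of these data known.

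Of 52542 cells, 50823 with at least 200 genes were kept, 3848 to 11060 per library. Counts were clustered (scanpy 1.11.5, leidenalg 0.10.2, 10 principal components, 30 neighbours, resolution 0.6, 22 clusters) without connexin, cadherin or other listed junction genes, and clusters were named from fixed markers. A class with at least 3 detected markers took its name, and doublets were kept. Clusters of PG, epithelial or rete-like cells with Pax8 raised by over 1.5 (log2) were set apart. UMIs were summed per class and library, with at least 10 cells in a sum. CPM has exact Poisson 95% intervals. edgeR 4.0.16 in R 4.3.3 (TMM, filterByExpr) tested classes with the library as a block, since the classes of 1 library share a cell suspension, and trends with age. DESeq2 1.42.0, other normalization, filters, cells, classes, resolution 1.2, doublets left out and each library left out were alternatives. Tests were checked on simulated data.

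The low-count filter of the trend fits was changed after a first fit, which needed every library to pass, had left out Gja4. The tests of differences between trends, the Foxl2 and Lgr5 sub-clusters and the naming of Gjb5 were added after values were seen. Named genes were the 8 members, the 3 most like each, and list genes that were called and first or next in their list in a class.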

Additional observations from a re-analysis of the deposited data

Results flagged for a closer look

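Gja4 stood out because its trend with age in germ cells differed from its trend in each of the other 4 classes, by a test of the difference itself in 1 edgeR fit over all sums. The difference, in log2 per step of the age order, was 1.85 against endothelium (adjusted p = 3.79e-05), 1.66 against epithelium (adjusted p = 0.0173), 1.21 against PG cells (adjusted p = 0.00387) and 0.91 against stroma (adjusted p = 0.0278). The difference from endothelium was called in 9 of 9 alternatives, that from PG cells in 8, from epithelium in 5 and from stroma in 3. The last 3 differences were all lost without P5. The test was added after the values of Gja4 were seen, and its fit had no library block. Age and dissociation time cannot be told apart over these 7 libraries.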

How the results depend on the processing

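Of the members' class differences, 974 of 1050 kept their side of the threshold over the alternatives, and their direction where called. A further 57 were lost and 18 were gained. In 1 case a called difference, Cdh1 in epithelium against PG cells, reversed to -1.06 with stricter cells (1000 genes or more, no more than 10% of UMIs from mitochondria, adjusted p = 0.811). Differences not called could change sign and still count as kept. Gja4 in epithelium less stroma, at 1.36, ranged from -2.23 to 1.74. Of the members' trends 386 of 402 held, 7 were lost and 9 gained, and of the differences between trends 25 of 36 held and 11 were lost.

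The number of genes called between classes was 8737 for germ cells against epithelium, 1505 for epithelium against PG cells, 3721 for epithelium against stroma and 5232 for epithelium against endothelium. The stricter cells gave 5667, 425, 467 and 2761, and without the library block (the pairing of classes by replicate) epithelium against PG cells gave 681. Leaving out 1 library at a time gave 872 to 1658 for epithelium against PG cells.

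Genes with a trend numbered 1366 in germ cells, 240 in epithelium, 623 in PG cells, 1449 in stroma and 683 in endothelium. DESeq2 gave 2411, 374, 1280 and 2370 in germ cells, epithelium, PG cells and stroma. A low-count filter passed in every library gave 690, 116, 372 and 303 in germ cells, epithelium, PG cells and endothelium. Such a filter was used in the first trend fit and was replaced after it had left out Gja4. No filter gave 2294 in germ cells. In epithelium library size alone gave 118, cells assigned singly 1434, resolution 1.2 gave 1059 and doublets left out 123. In stroma the stricter cells gave 942 and resolution 1.2 gave 944. Leaving out 1 library at a time gave 525 to 2271 in germ cells, 20 to 275 in epithelium, 273 to 723 in PG cells, 553 to 2267 in stroma and 150 to 1158 in endothelium. The epithelial trend could not be fitted with the stricter cells.

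Levels over all libraries moved beyond the counting interval for Gja1 in PG cells (135 CPM with the stricter cells, 132 with cells assigned singly), Gja4 in endothelium (73.8 assigned singly), Cdh2 in epithelium (52.2 stricter, 59.3 assigned singly, 61.6 at resolution 1.2), Cdh5 in endothelium (693 assigned singly, 803 without doublets) and Cdh11 in stroma (193 stricter, 218 assigned singly, 192 at resolution 1.2, 185 without doublets). Small classes limit the rest: 41 germ cells at E11.5, 42 to 220 endothelial cells per library, and 45 Gja5 UMIs in endothelium.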
